A study of Mus musculus with 4 samples.

Results

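The genes examined here are the forkhead transcription factor genes of the mouse other than the Foxp and Foxo subfamilies and Foxa1. They were picked by symbol alone, as Fox followed by a letter from a to s and a number, and 35 of the 24548 genes in the count table met that rule. The values are sequencing reads at each gene's region after chromatin immunoprecipitation (ChIP) with a Foxp1 antibody, and in input DNA, which is chromatin sequenced without an antibody step. The 4 libraries are basal Foxp1 ChIP, basal input, luminal Foxp1 ChIP and luminal input, 1 library each. All came from mammary epithelium of untreated wild-type females aged 10 to 12 weeks, of strain FVB/N (spelled FBV/N in the sample labels). No library with a control antibody was analysed here, so a ratio of ChIP over input does not separate Foxp1 binding from antibody-independent recovery of DNA. The labels do not say how many mice were pooled. In bulk chromatin, fewer cells with a bound region and less binding per cell cannot be told apart.

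Forkhead factors share a winged-helix DNA-binding domain that recognises sequences close to TGTTTAC. Foxp1 belongs to the same family and mostly represses transcription, and its antibody signal is described here at other forkhead genes. The libraries hold signal for Foxp1 alone, so they do not show where other forkhead factors bind. Basal cells are the outer, contractile cells of the mammary duct, and luminal cells line its lumen. Most of the genes examined are best known from embryonic development or from single organs, and a few, such as Foxk1, Foxk2, Foxj2 and Foxn2, are used in many tissues.

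The libraries held 3080114 to 4201459 reads in gene regions. The median read count of a member was 148 for basal ChIP and 136 for basal input, and 140 for luminal ChIP and 192 for luminal input, over the 33 members with at least 40 reads in the 4 libraries together. The medians over all 23128 genes with that depth were 160, 144, 136 and 192 in the same libraries. Genomic DNA gives no expression values, so the labelled cell types were set against ChIP ratios and the ratio between the inputs, by the call rule given below. Of 4 basal marker genes, Krt5 and Krt14 were called higher in basal cells (log2 0.79 and 0.86) and not in luminal cells (-0.46 and 0.08). Acta2 (0.47 in basal and 0.07 in luminal cells) and Trp63 (-0.0005 and -0.15) were called in neither. Of 4 luminal marker genes, Krt8 and Gata3 were called higher in luminal cells (0.66 and 1.01) and not in basal cells (0.42 and 0.45). The basal interval of Krt8 (0.06 to 0.79) also lay above 0. Krt18 stood at 0.39 in basal and 0.41 in luminal cells and Elf5 at -0.27 and -0.48, called in neither. In the basal over the luminal ratio, Krt5 (log2 1.24) and Krt14 (0.78) were called higher. Gata3 (-0.56), Krt8 (-0.24), Krt18 (-0.02), Elf5 (0.21), Acta2 (0.40) and Trp63 (0.15) were not called there. The marker genes thus follow the labels only in part, and no luminal marker was called as different between the cell types. In basal over luminal input, Krt14 was called higher (log2 0.59), as were 0.709% of all genes. Not called there were Krt5 (0.47), Acta2 (0.30), Trp63 (0.27), Gata3 (0.13), Elf5 (-0.09), Krt18 (-0.37) and Krt8 (-0.40). Of the markers of fibroblasts, endothelium and leukocytes, Col1a1, Pdgfra, Pecam1, Cdh5 and Ptprc, none reached 1.5-fold in ChIP over input in either cell type. Col1a1 in luminal cells stood at log2 0.45 with an interval above 0 (0.06 to 0.85). The other intervals of these markers included 0.

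Throughout, a difference is a log2 ratio of reads scaled by TMM (a trimmed mean that sets library sizes), with an exact Clopper-Pearson 99% interval. A gene is called higher or lower when its ratio is at least 1.5-fold and the interval excludes 1. With 1 library per group there is no replicate, no test and no p-value. The intervals cover counting error only, and PCR copies of a read are not independent molecules.

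Promoter windows of 4 members are shown, because these are genes with calls below whose base composition differs. Each runs from 250 bases before to 50 bases after a transcript start, read 5′ to 3′ on the gene's strand, from RefSeq on GRCm38.p6 (mm10 is the same assembly). Capitals mark CpG dinucleotides, which are dense in CpG islands. The Foxr2 window lies inside the gene, which runs from 153114581 to 153132861, and not at its 5′ end. The set was chosen after the values were seen.
Foxc1, chr13:31806396-31806695, plus strand: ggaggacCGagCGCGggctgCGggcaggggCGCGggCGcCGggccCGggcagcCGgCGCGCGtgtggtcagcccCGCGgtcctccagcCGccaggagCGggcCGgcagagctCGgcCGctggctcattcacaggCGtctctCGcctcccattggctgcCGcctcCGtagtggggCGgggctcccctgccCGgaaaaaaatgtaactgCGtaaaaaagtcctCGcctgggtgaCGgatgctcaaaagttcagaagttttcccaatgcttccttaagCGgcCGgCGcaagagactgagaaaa
Foxd4, chr19:24900967-24901266, minus strand: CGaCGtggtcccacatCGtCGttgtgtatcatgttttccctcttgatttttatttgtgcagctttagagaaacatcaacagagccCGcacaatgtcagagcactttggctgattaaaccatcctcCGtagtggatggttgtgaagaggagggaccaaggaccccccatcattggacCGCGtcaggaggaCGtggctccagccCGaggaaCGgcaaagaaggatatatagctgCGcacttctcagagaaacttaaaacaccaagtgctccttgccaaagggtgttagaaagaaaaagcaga
Foxb2, chr19:16873781-16874080, minus strand: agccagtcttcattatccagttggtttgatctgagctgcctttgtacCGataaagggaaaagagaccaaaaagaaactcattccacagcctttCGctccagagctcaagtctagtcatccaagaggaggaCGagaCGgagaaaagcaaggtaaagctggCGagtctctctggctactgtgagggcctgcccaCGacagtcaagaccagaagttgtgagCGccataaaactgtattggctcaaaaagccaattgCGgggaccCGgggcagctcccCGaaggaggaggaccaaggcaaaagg
Foxr2, chrX:153118538-153118837, plus strand: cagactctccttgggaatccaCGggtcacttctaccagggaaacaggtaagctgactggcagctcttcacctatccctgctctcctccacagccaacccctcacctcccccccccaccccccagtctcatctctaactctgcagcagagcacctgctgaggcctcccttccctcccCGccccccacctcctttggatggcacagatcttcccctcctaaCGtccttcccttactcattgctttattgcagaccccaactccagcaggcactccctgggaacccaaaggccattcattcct
The Foxc1 window held 32 CpGs, Foxd4 12, Foxb2 10 and Foxr2 3.

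Read depth split the members into 2 sets with nothing between. Over the 4 libraries together, 8 members had 5 to 100 reads and the other 27 had 459 to 965. The 8 were Foxj3 (5), Foxa3 (19), Foxf1 (45), Foxd2 (54), Foxh1 (65), Foxb1 (78), Foxl2 (81) and Foxm1 (100). Each of the 8 had another gene of the table within 5000 bp, against 10 of the other 27. The share of all genes with such a neighbour was not computed, and whether neighbours have a part in low counts was not tested. Foxf1 lay 1275 bp from the long noncoding RNA gene Fendrr, which had 36 reads. Foxd2 lay 358 bp from Foxd2os (55 reads), Foxl2 296 bp from Foxl2os (108 reads) and Foxa3 837 bp from Sympk (17 reads). Foxb1 lay 205 bp from B230323A14Rik (92 reads) and Foxj3 891 bp from Frg2f1 (10 reads). Foxh1, whose product is the DNA-binding partner of Smads in Nodal signalling, overlapped Kifc2 (86 reads). Foxm1 overlapped Tex52, which had 518 reads, so a low count was not shared by every neighbour. Among the deep members, Foxn3 lay 173 bp from Gm26839 and still had 472 reads, and Foxk1 (829 reads) and Foxj1 (851 reads) had neighbours at 1191 and 845 bp. Which part of a gene the authors counted, and how reads in 2 genes were treated, is not stated in the labels or the files used here.

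**Figure D1:**
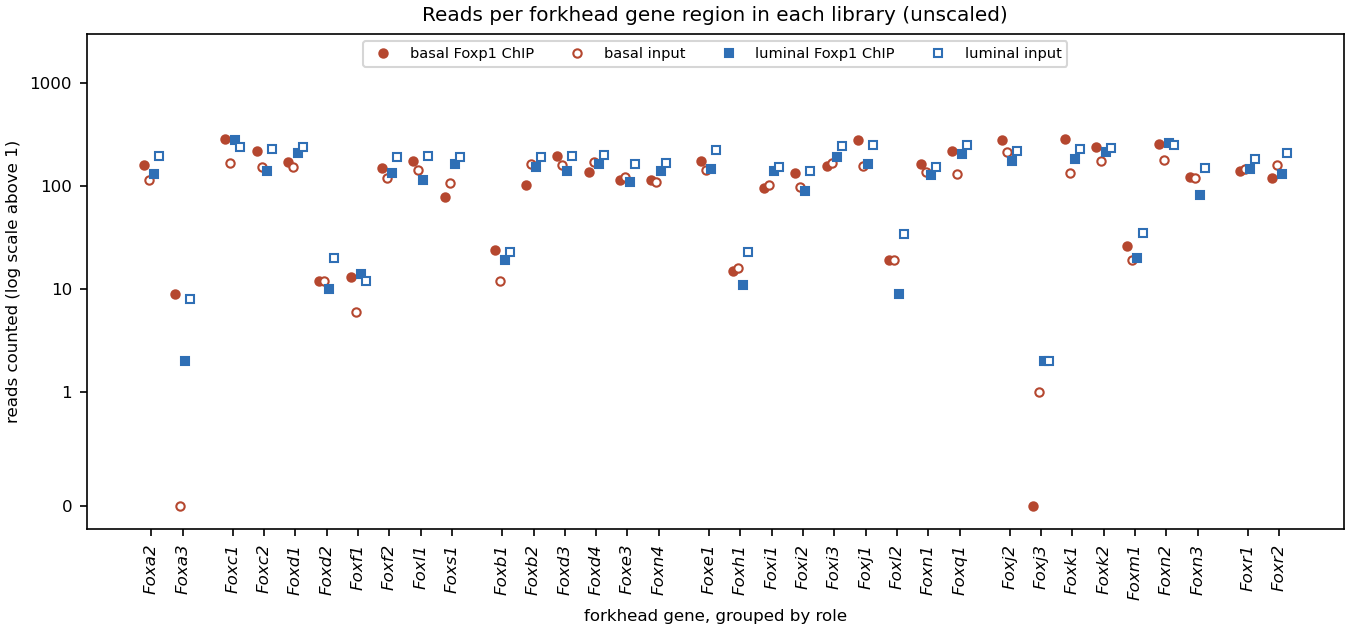
Unscaled reads (y axis, log scale above 1) in each of the 4 libraries for 34 of the 35 forkhead genes (x axis, grouped by role). Each point is 1 library; 8 genes stand at 0 to 35 reads per library, and the others at 78 to 285.

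In basal cells, 2 members were called higher in Foxp1 ChIP than in input and 3 lower. The higher ones were Foxk1, a widely used factor that represses autophagy genes, and Foxj1, the master regulator of motile cilia. The lower ones were Foxb2, expressed in the developing brain, Foxs1, found in pericytes and sensory neurons, and Foxr2. Of all genes tested, 4.24% were called higher and 4.06% lower by the same rule, so 2 and 3 of 33 are near the background. The members' median log2 ratio was 0.03, beside -0.01 over all genes, and 18 of 33 lay above 0, beside 48.4% of all genes. The split of 2 higher to 3 lower depended on scaling, with 1 to 4 under total counts and 4 to 1 when ratios were centred on olfactory receptor genes, which shifts the median of all genes to 0.20.

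Foxk1 (gene ID 17425, chromosome 5, 142401497 to 142462015, GRCm38.p6) drew 285 basal ChIP reads and 132 basal input reads, a 1.83-fold ratio (99% interval 1.40 to 2.43). Its luminal counts were 182 with the antibody and 230 in input, 1.08-fold (0.829 to 1.40). The basal ChIP library stood above its input and the luminal interval included 1. Its close relative Foxk2 had 238 reads in basal ChIP over 173 in basal input, 1.17-fold (0.899 to 1.52), and 212 in luminal ChIP over 235 in luminal input, 1.23-fold (0.957 to 1.57). Set against each other within the basal libraries, where scaling cancels, Foxk1 exceeded Foxk2 by 1.57-fold (1.08 to 2.28); within the luminal libraries the quotient was 0.877 (0.617 to 1.25).

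Foxj1 (gene ID 15223, chromosome 11, 116330704 to 116335499) drew 281 basal ChIP reads and 156 basal input reads, 1.53-fold (1.18 to 1.99). It lay just past the 1.5-fold limit, and the call was lost with total counts (log2 0.56) and with both inputs summed as background (log2 0.47). In luminal cells it had 164 reads over 250, 0.893-fold (0.684 to 1.16). Foxj2 had 278 reads in basal ChIP and 212 in basal input and 174 over 218 in luminal cells, log2 0.15 and 0.12. Foxj3 was not measurable, with 0 reads in basal ChIP, 1 in basal input and 2 in each luminal library.

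Foxb2 (gene ID 14240, chromosome 19, 16872316 to 16873830) had the lowest basal ratio among the 33. It had 103 reads in basal ChIP and 163 in basal input, 0.536-fold (0.383 to 0.745), but 153 over 192 in luminal cells, 1.08-fold (0.814 to 1.44). Only the basal ChIP library was low in Foxb2: scaled to a library of 1000000 reads, it had 27.9, where basal input had 52.1, luminal ChIP 48.8 and luminal input 45.0. Foxs1 (gene ID 14239, chromosome 2, 152931898 to 152933208) drew 78 basal ChIP reads and 106 basal input reads, 0.625-fold (0.419 to 0.925), and 162 over 189 in luminal cells, 1.17-fold (0.879 to 1.54). Foxr2 (gene ID 436240, chromosome X, 153114581 to 153132861) drew 120 basal ChIP reads and 160 basal input reads, 0.637-fold (0.462 to 0.874), and 129 over 210 in luminal cells, 0.836-fold (0.621 to 1.12). The basal calls on Foxs1 and Foxr2 were lost when the interval was widened by the spread among olfactory receptor genes, and again with ratios centred on those genes.

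In luminal cells, 1 member was called higher and 1 lower. Foxc1, which acts in the development of the eye, skull and vessels and marks basal-like breast cancer in human, was higher. Foxl2, the factor that maintains ovarian granulosa cells, was lower. Of all genes tested 1.5% were called higher and 2.13% lower. The members' median log2 ratio was 0.08, beside -0.0024 over all genes, and 18 of 33 lay above 0, beside 49.6% of all genes.

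Foxc1 (gene ID 17300, chromosome 13, 31806646 to 31810635) drew 285 basal ChIP reads and 165 basal input reads, 1.47-fold (1.14 to 1.90), just under the limit. In luminal cells it had 278 reads over 237, 1.60-fold (1.27 to 2.01). Of the members with 459 reads or more it was the one whose interval excluded 1 upward in both cell types, and the quotient of its basal over its luminal ratio was 0.918 (interval 0.654 to 1.29). Foxc2, its paralogue in vessel and lymphatic development, had 217 reads in basal ChIP over 154 in basal input, log2 0.26, and 140 in luminal ChIP over 230 in luminal input, log2 -0.27. Within the basal libraries the quotient of Foxc1 over Foxc2 was 1.23 (0.847 to 1.77), an interval that includes 1, and within the luminal libraries Foxc1 exceeded Foxc2 by 1.92-fold (1.35 to 2.75).

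Foxl2 (gene ID 26927, chromosome 9, 98955607 to 98958126) drew 19 reads in each basal library, and in luminal cells 9 ChIP reads over 34 input reads, 0.360-fold (0.114 to 0.936). This rests on the low-depth set, and the call was lost with the widened interval. Foxn2 had 257 reads in basal ChIP over 178 in basal input, log2 0.29, and 262 over 252 in luminal cells, 1.42-fold (1.12 to 1.78), under the limit. Foxn3, a repressor linked to cell cycle checkpoints, had 121 reads in basal ChIP over 120 in basal input, log2 -0.22, and 82 over 149 in luminal cells, log2 -0.42. Within the luminal libraries Foxn2 exceeded Foxn3 by 1.88-fold (1.24 to 2.87).

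**Figure D2:**
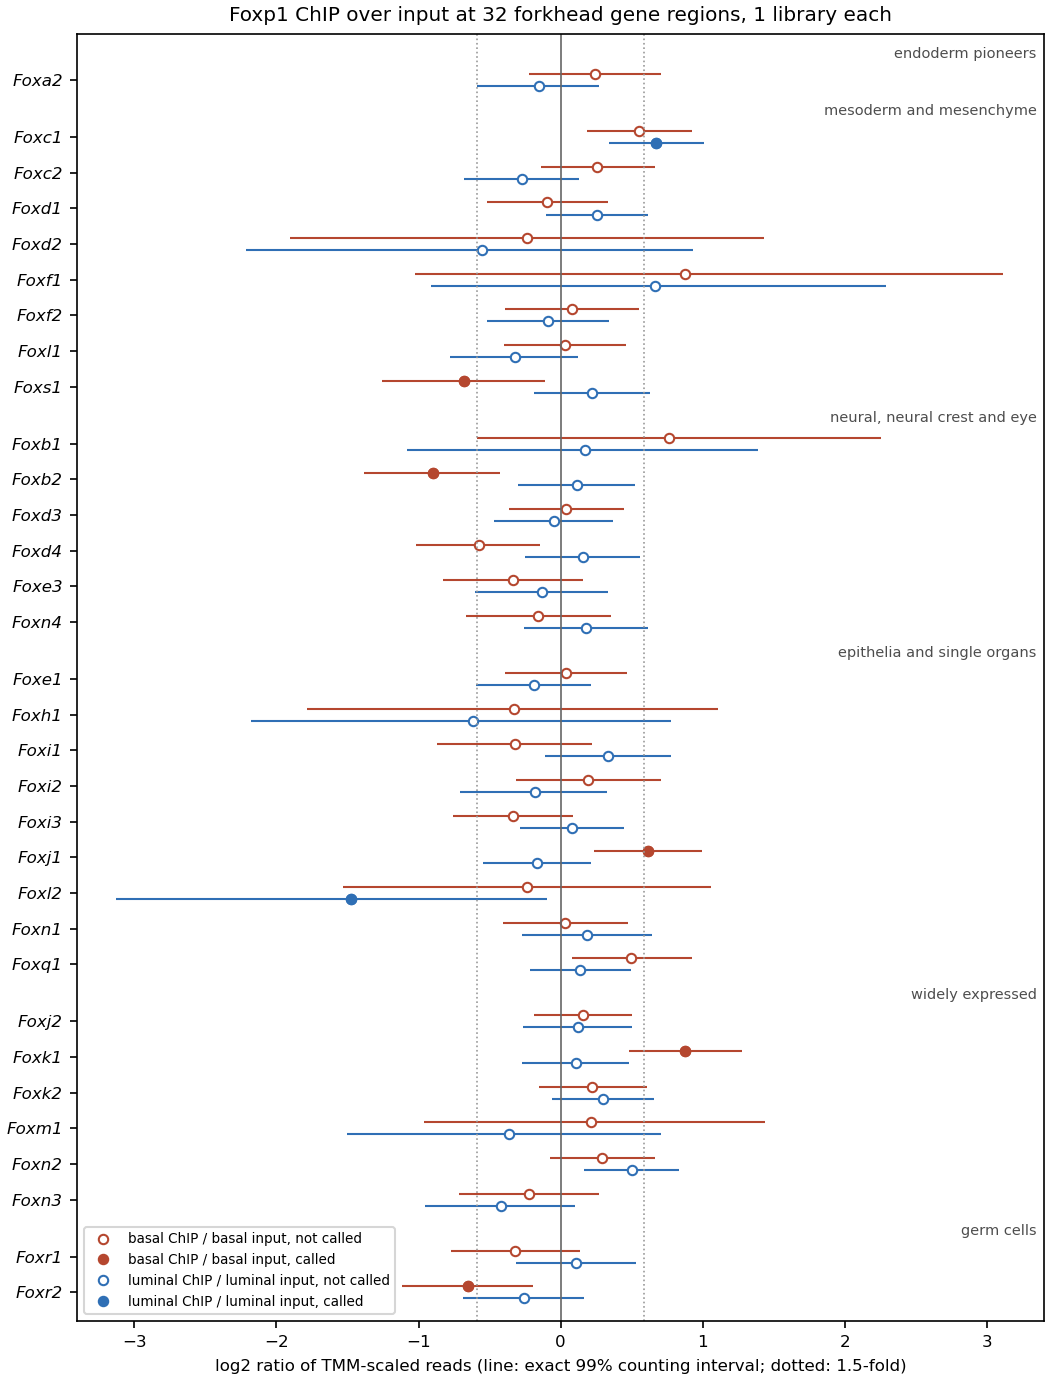
Log2 ratio of ChIP over its own input (x axis) for 32 of the 33 forkhead genes with at least 40 reads, grouped by role (y axis); basal above luminal in each pair, lines are 99% counting intervals, filled points are called. Of the called points, Foxk1 and Foxj1 lie right of the dotted 1.5-fold lines in basal cells, and Foxb2, Foxs1 and Foxr2 left. In luminal cells the called Foxc1 lies right and Foxl2 left. Foxf1 and Foxb1 in basal cells, and Foxf1 and Foxh1 in luminal cells, also lie beyond these lines. They were not called, as their intervals include 0.

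By role, 6 of the 7 widely expressed members were deep enough to test. Of these 5 lay above 0 in basal cells, with a median of 0.22 and a range of -0.22 to 0.87. In luminal cells 4 did, with a median of 0.11. Over all genes 48.4% lay above 0 in basal and 49.6% in luminal cells. Foxm1, the driver of mitotic gene expression, had 26 reads in basal ChIP and 19 in basal input and 20 over 35 in luminal cells, too few to place (log2 intervals -0.96 to 1.44 in basal and -1.50 to 0.71 in luminal cells).

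The 8 members of mesoderm and mesenchyme had a median of 0.05 in basal cells, with none called higher and Foxs1 lower, and of 0.07 in luminal cells, with Foxc1 higher and none lower. Foxf2, of gut and palate mesenchyme, had 148 reads in basal ChIP and 119 in basal input and 133 over 192 in luminal cells, log2 0.08 and -0.09. Foxl1, of the cells under the gut epithelium, stood at 0.03 in basal and -0.32 in luminal cells, and Foxd1, of kidney stroma, at -0.09 and 0.26. Foxf1 had 13 reads in basal ChIP over 6 in basal input, 1.84-fold with an interval of 0.492 to 8.63, and 14 over 12 in luminal cells. Foxd2 had 12 over 12 in basal cells, 0.849-fold (0.267 to 2.69), and 10 over 20 in luminal cells. Foxc2, Foxl1 and Foxf1 lie in 1 stretch of chromosome 8 (121084386 to 121130644), and Foxq1, Foxf2 and Foxc1 in 1 stretch of chromosome 13 (31558170 to 31810635). In the chromosome 13 stretch basal log2 ratios were 0.50 for Foxq1, 0.08 for Foxf2 and 0.55 for Foxc1, so the middle gene was nearest 0.

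Of the 7 neural, neural crest and eye members, 2 lay above 0 in basal cells (median -0.16) and 5 in luminal cells (median 0.12). Over all genes these shares were 48.4% and 49.6%. Foxb1, of low depth, is among both the 2 and the 5. Differences between such small role sets were not tested. Foxd4, studied mainly in early neural ectoderm, had 135 reads in basal ChIP and 171 in basal input, log2 -0.58. This was just short of 1.5-fold, and it was called lower with total counts (-0.63). Its luminal counts were 162 over 198, log2 0.15. Foxd3, a neural crest factor, had 194 over 160 in basal cells. Foxd3 exceeded Foxd4 by 1.53-fold (1.02 to 2.30) within the basal libraries. Foxb1 had 24 reads in basal ChIP and 12 in basal input, 1.70-fold (0.665 to 4.78), and 19 over 23 in luminal cells. Foxb1 exceeded Foxb2 by 3.10-fold (1.20 to 8.02) within the basal libraries. Foxe3 of the lens (-0.33) and Foxn4 of the retina (-0.16) were not called in basal cells, nor in luminal cells at -0.13 and 0.18.

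The 9 members of epithelia and single organs had a median of 0.03 in basal and -0.16 in luminal cells, with Foxj1 called higher in basal and Foxl2 lower in luminal cells. Foxq1, a hair shaft factor, had 218 reads in basal ChIP and 131 in basal input, 1.41-fold (1.06 to 1.90), and 204 over 252 in luminal cells, log2 0.14. Foxi1, of ionocytes and acid-secreting kidney cells, had 96 reads over 102 in basal cells, log2 -0.32, and 141 over 152 in luminal cells, log2 0.34. Foxi2 stood at 0.19 in basal and -0.18 in luminal cells, and Foxi3 of skin and tooth placodes at -0.33 and 0.08. Foxn1 of thymus and hair follicles stood at 0.03 and 0.19, and Foxe1 of the thyroid at 0.04 and -0.19. Foxh1 had 15 reads over 16 in basal cells, log2 -0.33, and 11 over 23 in luminal cells, log2 -0.62. Foxr1, a germ cell gene like Foxr2, stood at -0.32 and 0.11.

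The endoderm pioneer factor gene Foxa2 had 160 reads in basal ChIP and 115 in basal input, log2 0.24, and 130 over 197 in luminal cells, log2 -0.16. Foxa3 had 9 reads in basal ChIP and 0 in basal input. The 99% interval of this ratio starts at 1.06-fold and has no upper limit. Its luminal counts were 2 in ChIP over 8 in input, 0.340-fold (0.0149 to 2.51). Foxa3 thus met the ratio and interval of the call rule as higher in basal cells. Its 19 reads in all kept it below the depth limit, so it is not counted among the calls.

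Of 23 pairs of members within a subfamily, the interval of the difference excluded 0 in 3 basal and 2 luminal pairs, all named above. No share for pairs of other genes was computed to set beside these counts. The pair intervals cover counting error only and were not widened by the spread among olfactory receptor genes. Over all genes, the variance was 4.45 times that of counting in the basal libraries and 2.87 times in the luminal libraries. These pair comparisons were added after the values were seen, and they are not adjusted for their number.

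The ratio of ratios asks whether a gene's ChIP ratio differs between basal and luminal cells. Called higher in basal cells were Foxj1, by 1.71-fold (1.19 to 2.46), and Foxk1, by 1.70-fold (1.17 to 2.46). Called lower in basal cells were Foxb2 at 0.495-fold (0.323 to 0.759), Foxs1 at 0.536-fold (0.334 to 0.859) and Foxd4 at 0.602-fold (0.403 to 0.900). By the same rule 3.72% of all genes were called higher and 4.16% lower, so 2 and 3 of 33 are near the background here too. When intervals were widened as above, Foxb2 alone of the 5 kept its call. Centring on olfactory receptor genes gave 3 higher, with Foxc2 added, and 2 lower, without Foxd4.

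The inputs entered this difference. Foxk1 had 132 reads in basal input and 230 in luminal input, log2 -0.35, and Foxj1 156 and 250, log2 -0.23. With the ChIP libraries compared directly, Foxk1 stood at log2 0.41 and Foxj1 at 0.54, and neither was called. Foxb2 (-0.81) and Foxs1 (-1.29) were still called lower, Foxd4 (-0.50) was not, and Foxi1 (-0.79) was added, from 96 reads in basal ChIP and 141 in luminal ChIP. Between the ChIP libraries the share of all genes called higher was 4.05% and lower 3.98%. Between the inputs themselves no member was called, where the share of all genes called was 0.709% as higher and 0.463% as lower in basal input. The members' median was -0.10 between the inputs, and 12 of 33 lay above 0. Over all genes the median was -0.0007, and 49.9% lay above 0.

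Basal and luminal ratios, which share no library, had a Pearson r of 0.28 and a Spearman rho of 0.21 across the 33 members, beside 0.21 and 0.25 across all 23128 genes. Over the 27 deeper members they were 0.10 and 0.02. Of the 27, 7 lay above 0 in both cell types, 3 below 0 in both, 8 above 0 in basal cells only and 9 above 0 in luminal cells only. The genes of 1 library share its depth and base composition, so these are descriptions. The median ratio of ratios was 0.09 over the 33 members and -0.12 over the 27, so its sign turned with the 6 tested members of low depth.

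**Figure D3:**
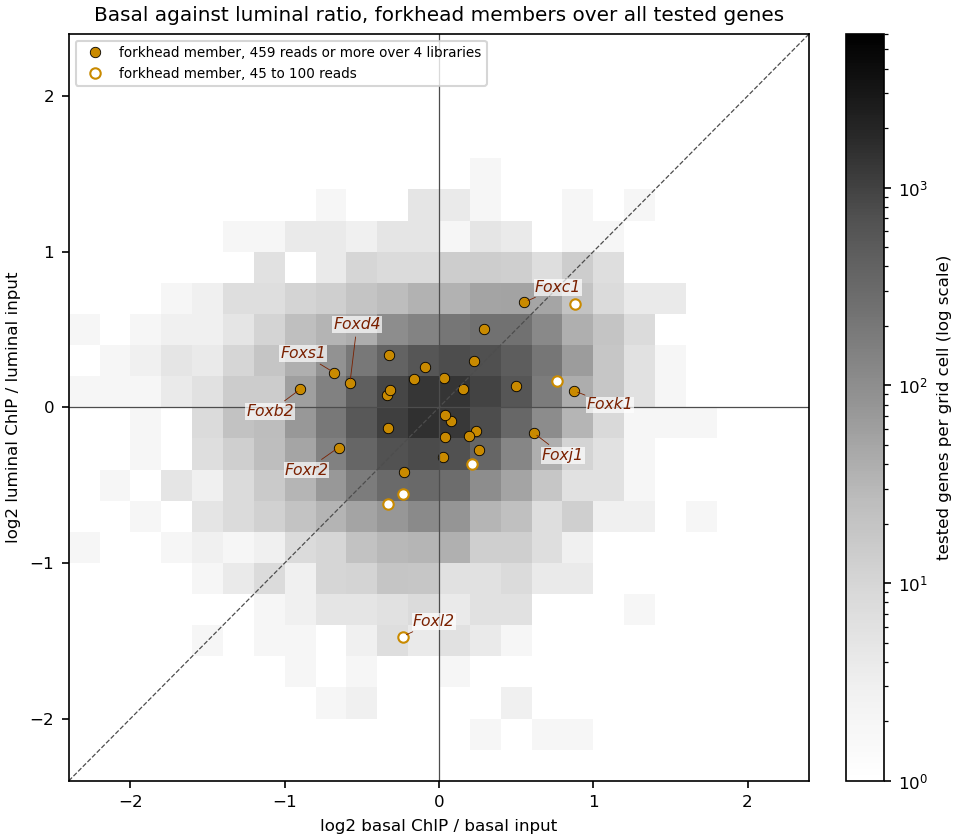
Log2 ratio in basal cells (x axis) against luminal cells (y axis); points are 32 of the 33 forkhead genes, grey squares count all tested genes (20 genes lie outside the axes), and the dashed line marks equal ratios. Named genes were called in at least 1 comparison: Foxb2, Foxs1 and Foxd4 lie left of 0 and just above the horizontal line, Foxk1 and Foxj1 right of 0 near it, and Foxc1 near the dashed line.

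The members varied more among themselves in basal ChIP than counting allows. The variance of their reads around a common split between basal ChIP and basal input was 5.45 times that of counting, and 2.84 times in the luminal pair, 1.77 between the inputs and 5.84 between the ChIP libraries. Over all genes these values were 4.45, 2.87, 1.91 and 3.88, and over 1089 olfactory receptor genes 2.29, 2.13, 1.32 and 3.08.

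Among the forkhead genes left out by the rule, which are the 4 Foxp and 4 Foxo genes and Foxa1, Foxp1 itself and Foxo3 were called higher in both cell types, 2 of 9, and none lower. No member of the 33 was called in both cell types, where the share of all tested genes was 0.636% in either direction and 0.467% as higher in both, so none of 33 is near the background. Foxp1 stood at log2 1.20 in basal and 0.78 in luminal cells and Foxo3 at 0.97 and 0.76, while Foxk1, the highest of the deep members in basal cells, stood at 0.87 there. The medians of the 9 were 0.15 and 0.12, beside 0.03 and 0.08 for the 33. Among 19 Sox genes, another family of developmental regulators, Sox4 and Sox9 were called higher in basal ChIP, 2 of 19, and Sox14 and Sox21 lower, also 2, while luminal ChIP gave no call. The shares of all tested genes for these calls are the 4.24% and 4.06% given above for basal and the 1.5% and 2.13% for luminal cells. Their medians were 0.07 and 0.13. These differences between lists were not tested.

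Promoter windows were found for 22 of the 35 members, 20 of them deep enough to test. The others included Foxb1, Foxc2, Foxe1, Foxf1, Foxh1, Foxj1, Foxk1, Foxl1, Foxm1, Foxn2, Foxq1 and Foxs1. The windows of Foxn3, Foxn4 and Foxr2 lie wholly inside the gene, away from its 5′ end. The 20 had a median GC content of 62.8%, beside 56.3% over 17432 tested genes with a window. The ratio of observed to expected CpG was at least 0.6 in 12 of the 20 (60.0%) and in 48.6% of the 17432.

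Over all genes the ChIP ratio followed this measure. The median basal log2 ratio was -0.17 in 3796 genes under 0.2, -0.11 in 2937 at 0.2 to 0.4, -0.02 in 2242 at 0.4 to 0.6, 0.09 in 3479 at 0.6 to 0.8 and 0.15 in 4978 over 0.8. In luminal cells the corresponding medians were -0.08, -0.06, -0.01, 0.03 and 0.09. At or above 0.6, the basal calls took in 6.71% of genes as higher and 2.6% as lower, and the luminal calls 2.33% as higher and 1.18% as lower. Of the 12 CpG-rich members none was called in basal cells, and Foxc1 higher and Foxl2 lower in luminal cells. Foxk1 and Foxj1, called higher in basal cells, and Foxs1, called lower, had no window and so could not be among the 12.

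At 0.6 to 0.8 the 8 members were Foxd1, Foxd2, Foxd3, Foxd4, Foxf2, Foxl2, Foxn4 and Foxr1. All 8 lay below their bin's median in basal cells, at -0.58 to 0.08, and 4 of the 8 lay below it in luminal cells. Of the 8, Foxd2 and Foxl2 were of low depth. Their basal counts were 12 reads over 12 (log2 interval -1.90 to 1.43) and 19 over 19 (-1.53 to 1.06). These positions within the bin were not tested. Over 0.8 were Foxc1, Foxk2, Foxj2 and Foxi3, of which 3 lay above their bin's median in each cell type. Foxc1, whose CpG-dense window is printed above, had a value of 0.943. Foxb2, with 10 CpGs in its window and a value of 0.502, and Foxr2, with 3 and 0.151, were called lower in basal cells. The Foxr2 and Foxn4 windows lie inside their genes, so their values are not those of the 5′ promoters. Whether base composition has a part in these calls was not tested.

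**Figure D4:**
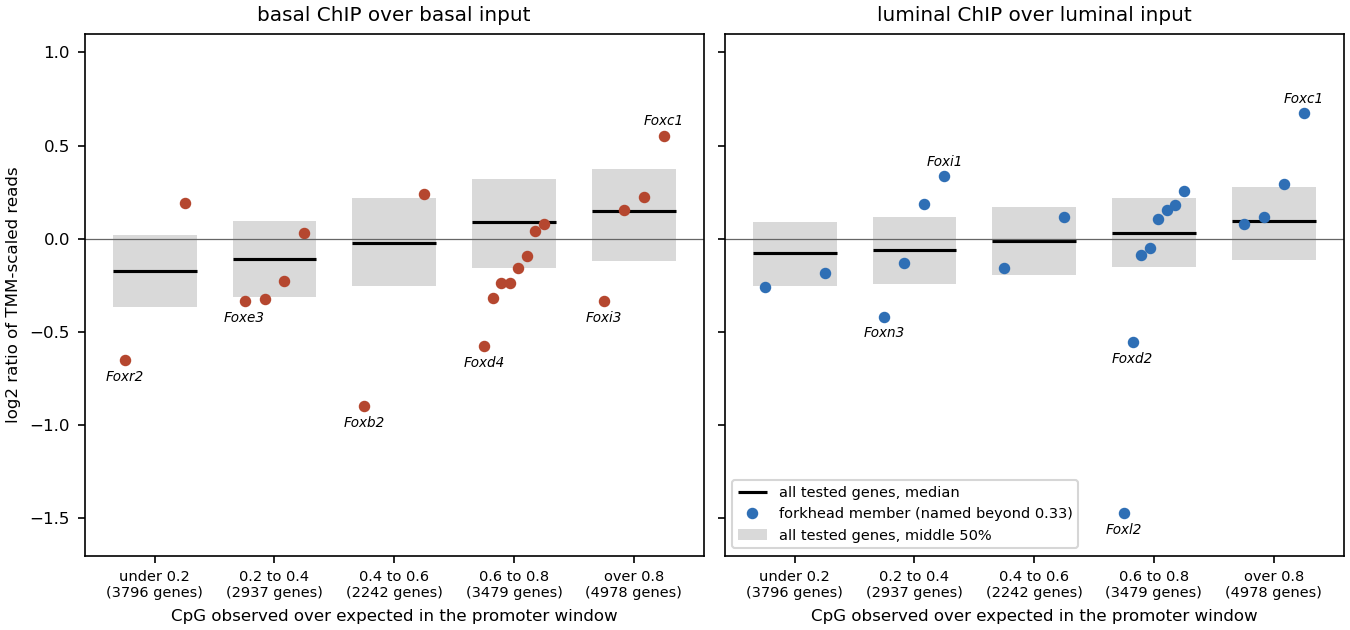
Log2 ratio of ChIP over input (y axis) by CpG observed over expected in the promoter window (x axis), basal left and luminal right. Grey bars span the middle 50% of all tested genes, black lines their medians, and points are the 20 forkhead genes with a window. In basal cells the medians run from -0.17 to 0.15. All 8 members at 0.6 to 0.8 lie below their bin's median there, Foxd2 and Foxl2 of low depth among them.

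The forkhead core TGTTTAC, searched on both strands, was in none of the 22 windows, and in 3.03% of the 17432 windows of tested genes. The looser TGTTTNC, which includes TGTTTAC, was in 4 of the 22, those of Foxd4, Foxi1, Foxj3 and Foxr2. Of the 20 tested members 15.0% had it, beside 18.3% of all. In the Foxd4 window printed above its letters are TGTTTTC, beginning 219 bases before the start. No match says only that these letters are not in these 300 bases, which are a small part of what could have been counted.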

How the data were processed

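Foxp1 ChIP and input DNA of basal and luminal mammary cells were sequenced as single reads of 75 to 85 bp, per the labels' protocols. The authors deposited raw counts of reads per gene, not normalized; reads were counted with featureCounts on mm10, per the submitters' processing notes. The aligner, versions, duplicate handling and counted part of a gene are not stated in the labels or files. All 24548 genes had equal counts in the series table and the 4 sample files. Groups follow the sample titles.

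Libraries were scaled with TMM in edgeR 4.0.16 (R 4.3.3) on 23128 genes with at least 40 reads in all; 1420 genes were not tested. No count model was fitted, since each group has 1 library. Ratios have Clopper-Pearson 99% intervals; the ratio of ratios has a 99% normal interval from the 4 counts plus 0.5. Positions and promoters came from RefSeq tables of GRCm38.p6, matched by gene ID, with the most upstream promoter window per gene. Steps used Python 3.11.15, pandas 2.3.3 and scipy 1.17.1. Alternatives were total counts, DESeq2 1.42.0 size factors, olfactory receptor centring, no depth filter, summed inputs, a wider interval, a 2-fold limit and ChIP libraries compared directly. The wider interval multiplies the counting error by the square root of the variance ratio among olfactory receptors.

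The members and lists were chosen with earlier results of these data known. Members named with 4 counts include those called, the 3 at each end in each cell type and in the ratio of ratios, and 14 fixed genes. Foxb2, Foxc1, Foxd4 and Foxr2 were chosen for printing afterwards. One member is counted but not reported by name here.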

Additional observations from a re-analysis of the deposited data

Results flagged for a closer look

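For 5 members the ChIP ratio differed between basal and luminal cells by more than counting error and by at least 1.5-fold, 2 higher and 3 lower of 33, where 3.72% of all tested genes were higher and 4.16% lower. The log2 differences, basal minus luminal, were 0.77 for Foxj1, 0.76 for Foxk1, -1.01 for Foxb2, -0.90 for Foxs1 and -0.73 for Foxd4. In Foxj1 the basal ratio lay above 0 and the luminal ratio below it, and in Foxb2, Foxs1 and Foxd4 the basal ratio lay below 0 and the luminal ratio above it. In Foxk1 both lay above 0. The luminal interval of each of the 5 included 0, so the side of 0 in luminal cells is not set apart from counting error. The basal ratio of Foxd4 (log2 -0.58) was not called. With the wider interval Foxj1, Foxk1, Foxs1 and Foxd4 lost the call, and with the ChIP libraries compared directly Foxj1 (0.54), Foxk1 (0.41) and Foxd4 (-0.50) lost it. With 1 library per group the differences were not tested against variation between animals or preparations.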

How the results depend on the processing

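No paired analysis was possible because each group has 1 library and no test. Leaving out a library was not possible for the same reason. DESeq2 size factors and the absence of a depth filter kept every count of called members within 1.5 times. Foxa3, which the depth filter leaves out, met the call rule as higher in basal cells, on 9 reads over 0.

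In basal ChIP over basal input, where 2 members were called higher and 3 lower, the 2-fold limit gave 0 and 0 (0 in all), total counts 1 higher, summed inputs 1 higher, receptor centring 4 higher and 1 lower, and the wider interval 1 lower (3 in all). In luminal ChIP over luminal input the 2-fold limit gave 0 higher (1 in all) and the wider interval 0 lower (1 in all). In the ratio of ratios, the 2-fold limit and the wider interval each gave 0 higher and 1 lower (1 in all), and the direct comparison of ChIP libraries 0 higher (3 in all); summed inputs cancel in this quantity and give that same comparison. Between the inputs, receptor centring gave 2 lower (2 in all), against 0 otherwise.

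Summed inputs moved the members' median to -0.051 in basal and 0.013 in luminal cells, and receptor centring moved it to 0.25, 0.15 and, for the ratio of ratios, 0.24; the receptors themselves define that centre. Among the named members, the 2-fold limit ended 10 calls, the wider interval 7, the direct comparison 3, summed inputs 1 beside those 3, and receptor centring 3; receptor centring added 3 calls and the direct comparison 1. Total counts ended 1 and added 1. No called member changed sign under these alternatives. The cause of these changes was not tested. Depth limits Foxj3, Foxa3, Foxf1, Foxd2, Foxh1, Foxb1, Foxl2 and Foxm1, each with 100 reads or fewer over the 4 libraries.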
